A study of Mus musculus with 22 samples.

Results

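The S100 genes studied here were S100a8, S100a9, S100a6, S100a11, S100a4 and S100a10, 6 of the 23091 genes listed in the tables of the series. They were taken by name and all 6 were found. S100 proteins are small proteins of paired EF-hand motifs, most of which change shape on binding calcium and then bind a partner protein. S100A8 and S100A9 form a heterodimer, calprotectin, which is abundant in the cytosol of neutrophils, withholds zinc and manganese from microbes, and acts as an alarmin through Toll-like receptor 4 when it is released. S100A6 binds calcyclin-binding protein and annexins, S100A11 binds annexin A1, S100A4 binds non-muscle myosin, and S100A10 forms a tetramer with annexin A2 and has lost calcium binding. All 6 genes are on mouse chromosome 3 in RefSeq, under the gene IDs 20201 (S100a8), 20202 (S100a9), 20200 (S100a6), 20195 (S100a11), 20198 (S100a4) and 20194 (S100a10).

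Cells were sorted from the ileum of BALB/c recipients (aged 7 to 9 weeks) at day 21 after a transplant from female C57BL/6 donors (aged 7 to 10 weeks). Every recipient, controls included, had been irradiated with 2 doses of 5 Gy and given 5000000 donor bone marrow cells. Mice with aGVHD, acute graft-versus-host disease, had also received 400000 donor T cells, and control mice received none. The gate was CD45+H2kb+CD11b+Ly6G+, which selects donor-derived cells with the surface phenotype of neutrophils, and transcripts were counted by CEL-Seq2, which works on plates and puts a molecular identifier at the 3' end of each transcript. The series holds 12 aGVHD and 10 control libraries of 192 barcodes each. Titles fall into a dated set (8 aGVHD and 6 control libraries) and a G1 set (4 aGVHD and 4 control libraries). How many mice the libraries come from is not stated, and the p-values below therefore reflect variation among libraries, part of which may be technical.

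The RefSeq promoter windows of 5 of the 6 genes were at hand, each running from 250 bases before to 50 bases after the annotated start. The windows of the calprotectin pair are shown because these genes had the largest values in the results that follow. The capitals mark TATAAA, the core of the TATA box, which was searched for on both strands. On GRCm38.p6 they lie at chr3:90668821-90669120 on the plus strand (S100a8) and chr3:90695672-90695971 on the minus strand (S100a9).
S100a8: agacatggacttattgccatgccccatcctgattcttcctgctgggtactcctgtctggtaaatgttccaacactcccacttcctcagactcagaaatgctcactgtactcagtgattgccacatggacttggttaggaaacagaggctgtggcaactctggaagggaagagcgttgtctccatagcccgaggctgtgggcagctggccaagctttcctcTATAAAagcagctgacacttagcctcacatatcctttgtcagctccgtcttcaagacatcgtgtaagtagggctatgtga
S100a9: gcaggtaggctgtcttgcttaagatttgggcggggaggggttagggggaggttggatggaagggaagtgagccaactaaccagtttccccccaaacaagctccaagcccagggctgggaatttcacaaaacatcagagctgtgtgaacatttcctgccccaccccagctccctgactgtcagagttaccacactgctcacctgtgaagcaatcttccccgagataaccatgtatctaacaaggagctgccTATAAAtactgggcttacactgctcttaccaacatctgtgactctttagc
TATAAA occurred 1 time in the window of S100a8, where it began 30 bases before the annotated start, and 1 time in that of S100a9, where it began at the annotated start. It also occurred 1 time in the window of S100a4, beginning 31 bases before the start, and was not found in the windows of S100a6 and S100a11. Among 32851 promoter windows of this length, 13.6% held the motif on either strand. The match is a description of these letters only.

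Library totals ran from 215945 to 360054 transcripts in aGVHD libraries and from 45607 to 233719 in control libraries. Of 4224 barcodes, 1383 reached 500 transcripts and were counted as cells, 1025 from aGVHD and 358 from control libraries, with 74 to 95 cells per aGVHD library and 11 to 60 per control library. Neutrophil-gene cells, which had under 3 transcripts of C1qa, C1qb and C1qc together and at least 3 transcripts of a list of 16 neutrophil genes without S100 or granule genes, numbered 838 in aGVHD and 283 in control libraries. All 16 list genes were detected in both groups. C1q-positive cells, with at least 3 C1q transcripts, numbered 43 in aGVHD and 27 in control libraries. Barcode numbers recur between libraries, all 192 of them in at least 2, and a shared number was not taken to mark a shared cell. Levels are given as transcripts per 1000000 transcripts of named genes (CPM), because gene models without a name took 32.2% to 78.7% of a library's transcripts. The 500-transcript cutoff and the cell totals include these models, of which Gm10800 alone took 33.4% of the transcripts of kept cells.

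The calprotectin genes were higher in aGVHD than in control cells, S100a8 by a fitted 3.94-fold and S100a9 by 2.85-fold, and S100a6 and S100a11 were also higher, by 2.40-fold and 2.13-fold. S100a4 and S100a10 were scarce in both groups. S100a8, which encodes the smaller calprotectin subunit, had 2987 CPM in the lowest, 5514 CPM in the median and 29068 CPM in the highest aGVHD library, against 109 CPM in the lowest, 1629 CPM in the median and 3644 CPM in the highest control library. The highest values came from aGVHD replicates 7 and 6, 9 of the 12 aGVHD libraries lay above every control library, and the groups overlapped. The lowest value, in control replicate 9, rested on 2 transcripts. The fitted log2 fold change was 1.98 (SE 0.42), with an adjusted p of 0.00741 by limma.

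S100a9, the partner subunit, had 4601 CPM in the lowest, 7498 CPM in the median and 31289 CPM in the highest aGVHD library, against 1364 CPM in the lowest, 3035 CPM in the median and 5868 CPM in the highest control library. Here 8 of the 12 aGVHD libraries lay above every control library. Its log2 fold change was 1.51 (SE 0.31, adjusted p = 0.00711 by limma).

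**Figure D1:**
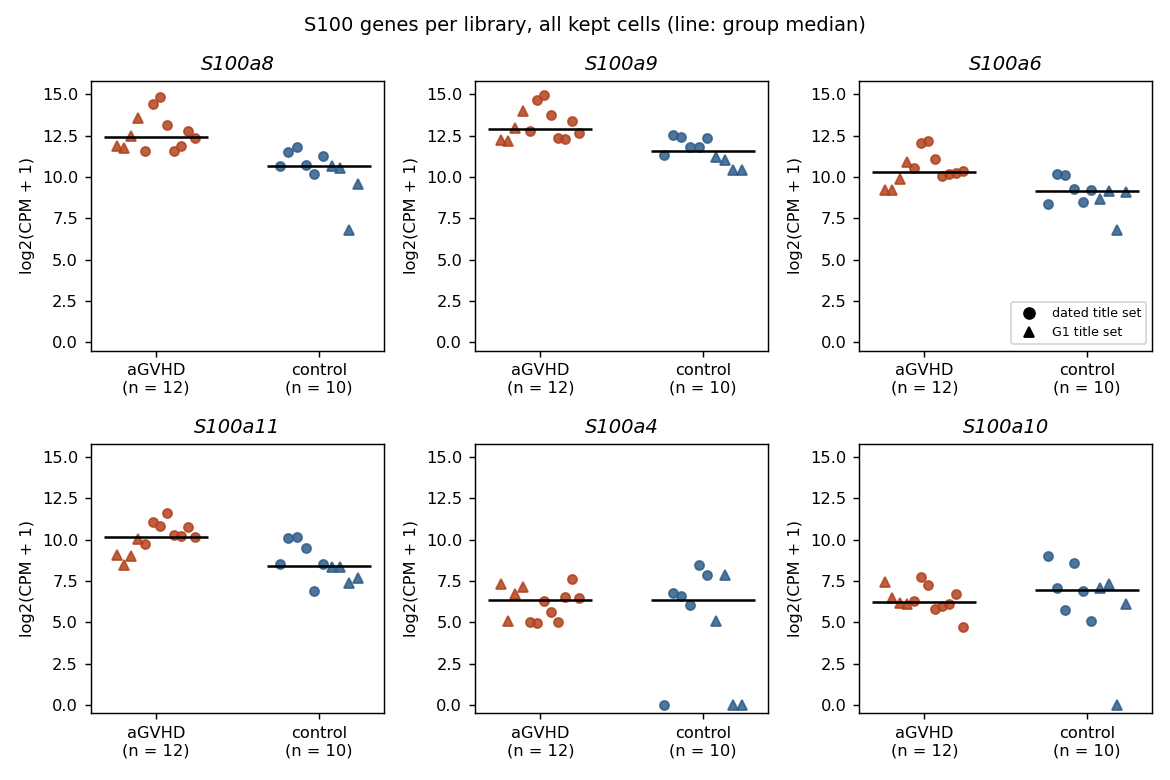
Level of each S100 gene per library over all kept cells, as log2(CPM + 1), in aGVHD (12 libraries, left) and control (10 libraries, right); each point is 1 library, its shape gives the title set, and the line is the group median. For S100a8, 9 aGVHD libraries lie above every control library, while S100a4 and S100a10 overlap throughout.

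S100a6, or calcyclin, had 581 CPM in the lowest, 1280 CPM in the median and 4561 CPM in the highest aGVHD library, against 109 CPM, 560 CPM and 1181 CPM in the lowest, median and highest control library. Its log2 fold change was 1.27 (SE 0.32, adjusted p = 0.0186 by limma), and 7 of 12 aGVHD libraries lay above every control library. S100a11, which binds annexin A1, had 354 CPM, 1148 CPM and 3076 CPM in the lowest, median and highest aGVHD library, against 118 CPM, 343 CPM and 1145 CPM in control libraries. Its log2 fold change was 1.09 (SE 0.28, adjusted p = 0.0188 by limma), and 6 of 12 aGVHD libraries lay above every control library. An S100a11 pseudogene is annotated elsewhere in the mouse genome, so reads of the gene and the copy may be mixed. Its share was not tested.

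S100a10, the annexin A2 partner, had a median of 75.1 CPM (25.0 to 216 CPM) in aGVHD libraries and 125 CPM (0 to 527 CPM) in control libraries. Its log2 fold change of -0.78 (SE 0.42, 95% interval -1.64 to 0.08, adjusted p = 0.252 by limma) did not pass. S100a4, the myosin-binding member, had 152 transcripts in all aGVHD cells and 74 in all control cells, at medians of 82.2 and 80.4 CPM, and fell below the low-count filter. Of the 6 genes, 5 passed that filter and 4 of these were called higher in aGVHD. Over all 1715 genes tested, 4.26% were called higher at an adjusted p under 0.05, and the median log2 change was 0.02.

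The fits within title sets gave the same direction for the 4 called genes. In the G1 set the log2 fold change was 2.77 (SE 0.58, adjusted p = 0.0490) for S100a8 and 2.11 (SE 0.38, adjusted p = 0.0225) for S100a9, while S100a6 and S100a11 had 1.25 and 1.06 with adjusted p of 0.355 and 0.351 (limma). In the dated set the changes were 1.66 for S100a8, 1.26 for S100a9, 1.32 for S100a6 and 1.12 for S100a11, with adjusted p from 0.0815 to 0.0964 (limma). The difference between sets was called for 0.0% of 1715 genes by limma, 83 having an unadjusted p under 0.05. The interaction of S100a8 was 1.04 (SE 0.88). Calls of the 4 genes held when each library was left out in turn, with log2 changes of 1.77 to 2.12 for S100a8. None of the 4 passed in the 18 libraries with at least 20 kept cells, which leave 6 controls, at log2 changes of 0.82 to 1.58 and adjusted p of 0.0764 to 0.119 (limma).

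The make-up of the cells moved with the groups. The summed neutrophil list had 20054 ± 5315 CPM (SD, n = 12) in aGVHD libraries and 11906 ± 3280 CPM (SD, n = 10) in control libraries. The epithelial markers Epcam, Krt8, Krt18, Krt19, Fabp2 and Fabp6 summed to 0 to 2198 CPM in aGVHD libraries and 0 to 8780 CPM in control libraries, with all 6 detected in both groups. The dendritic cell markers Flt3, Irf8, Ccr7, Siglech, Tcf4 and Zbtb46, also all detected in both groups, summed to 249 ± 98.0 CPM (68.4 to 350 CPM) in aGVHD libraries and 843 ± 562 CPM (235 to 1925 CPM) in control libraries. The B or plasma cell markers, all 5 detected in both groups, reached 48315 CPM in 1 aGVHD library and 48471 CPM in 1 control library, with medians of 49.8 and 725 CPM. Their part in the S100 differences was not tested. Barcodes taken as unused carried 994 CPM of S100a8 in aGVHD libraries and 848 CPM in control libraries, from 123 and 56 transcripts, a measure of free or misassigned RNA. For S100a6 they carried 525 and 485 CPM, against pooled levels of 2012 and 691 CPM in kept cells. For S100a10 they carried 154 and 212 CPM, from 19 and 14 transcripts, against pooled levels of 107 and 206 CPM in kept cells. S100a10 alone of the 6 genes was no higher in kept cells than in these barcodes.

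Few other genes of the pathway could be tested. None of the 7 other S100 family genes in the tables passed the low-count filter; S100a7a had the most transcripts, 66 in aGVHD and 25 in control cells, and S100a1 had 35 and 12. Of 6 receptor genes, 3 were tested over all kept cells and none was called. Cd14, the co-receptor of Toll-like receptor 4, had a log2 change of 0.93 (SE 0.36, adjusted p = 0.110 by limma), and Myd88, the adaptor downstream of that receptor, had 0.30 (SE 0.31). Tlr4 itself had 67 transcripts in aGVHD and 23 in control cells, too few to test. Of 7 partner genes, 4 were tested and none was called, Anxa2, the partner of S100a10, having 0.22 (SE 0.26) and Myh9, the partner of S100a4, having 0.12 (SE 0.22). The median log2 change was 0.30 over the tested receptor genes and 0.17 over the tested partner genes, beside 0.02 over all genes. Anxa1, the partner of S100A11, was not tested. It had 425 transcripts in aGVHD and 41 in control cells, at pooled levels of 258 and 56.4 CPM. The untested partners Anxa6 (31.6 and 64.7 CPM) and Cacybp (46.8 and 67.5 CPM) went the other way.

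Within neutrophil-gene cells, compared over 12 aGVHD and 7 control libraries, the same 4 genes had higher fitted levels in aGVHD but none passed the adjusted threshold. S100a8 had 3558 CPM, 6804 CPM and 34271 CPM in the lowest, median and highest aGVHD library, against 1716 CPM, 2811 CPM and 4210 CPM in control libraries. All 12 aGVHD libraries lay above the control mean of 2917 ± 994 CPM (SD, n = 7), and the groups overlapped. The log2 changes were 1.41 (SE 0.38) for S100a8, 1.31 (SE 0.35) for S100a6 and 0.93 (SE 0.25) for S100a11, each with an adjusted p of 0.0705, and 1.15 (SE 0.34) with 0.102 for S100a9 (limma). Over the 1695 genes tested, 0.649% were called higher. Of the 4 genes, S100a8 passed without the 24 granule-gene-positive cells described next (log2 change 1.20, SE 0.29, adjusted p = 0.0442), and all 4 passed when libraries with as few as 5 such cells were let in, with adjusted p of 0.0193 to 0.0430 (limma). S100a8 and S100a6 also passed without aGVHD replicate 1, and S100a6 and S100a11 without aGVHD replicate 12 (0.0454 to 0.0470). Most reruns did not pass. Of 19 runs leaving out 1 library, S100a8 and S100a11 passed in 1 each, S100a6 in 2 and S100a9 in 0. The highest adjusted p in these runs was 0.195, 0.205, 0.208 and 0.255 (limma). Of 21 other alternatives, S100a8 passed in 6, S100a6 and S100a11 in 4 each and S100a9 in 3. In these cells too the marker lists moved with the groups. The neutrophil list had 23308 ± 5440 CPM (SD, n = 12) in aGVHD and 15440 ± 4471 CPM (SD, n = 7) in control libraries. The epithelial list had medians of 158 and 1346 CPM (0 to 2270 and 28.7 to 9568 CPM), and the dendritic cell list had medians of 224 and 580 CPM (36.1 to 322 and 198 to 1907 CPM). Their part was not tested. S100a4 and S100a10 stayed below the filter, with 99 and 106 transcripts in aGVHD and 29 and 107 in control cells.

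**Figure D2:**
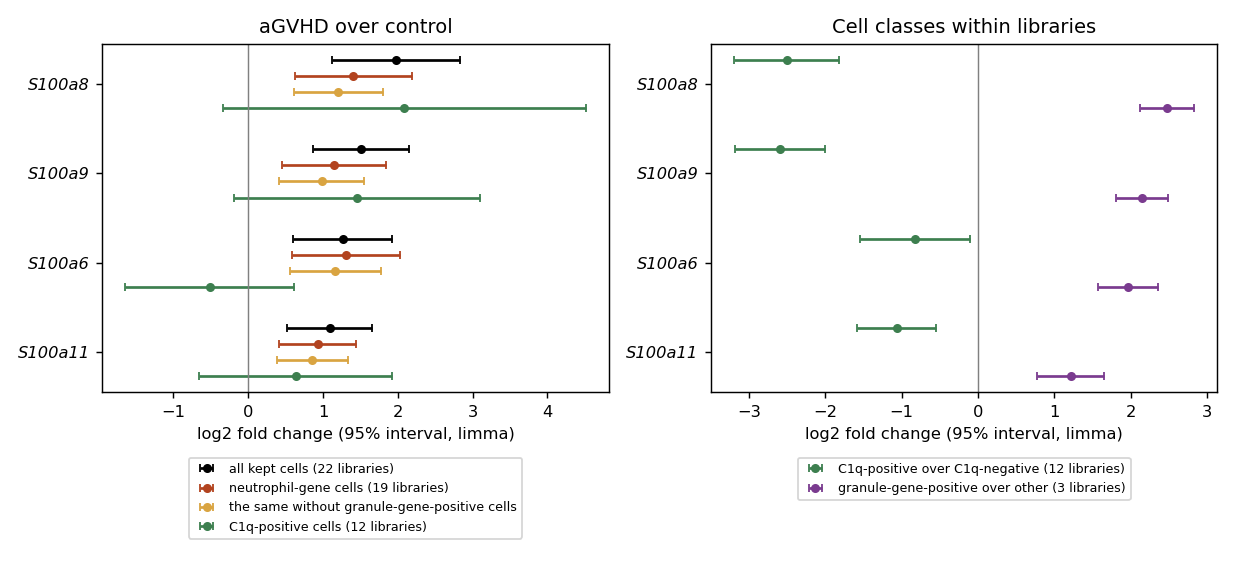
Fitted log2 fold changes with 95% intervals (limma) of S100a8, S100a9, S100a6 and S100a11, between aGVHD and control libraries in 4 sets of cells (left) and between cell classes of the same library (right). The intervals in all kept cells and neutrophil-gene cells lie above 0, while those in C1q-positive cells cross it; an interval is not adjusted for the number of genes tested.

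The cells were uneven in calprotectin. Among neutrophil-gene cells, the median cell held 4 transcripts of S100a8 in aGVHD and 1 in control, while the highest held 629 and 87. The 42 aGVHD cells with most S100a8, 5% of the class, carried 53.9% of its S100a8 transcripts, and the 15 control cells with most carried 42.0%. For S100a11 the same share of cells carried 30.7% in aGVHD and 33.4% in control. S100a8 and S100a9 together took a median of 0.860% of a cell's named transcripts in aGVHD (middle range 0.293% to 2.55%) and 0.375% in control (0.06% to 1.22%). They took over 5% in 102 of 838 aGVHD cells, spread over 12 of 12 libraries, and in 8 of 283 control cells from 5 libraries. By library this share of cells was highest in aGVHD replicates 7 (32.5%) and 6 (26.9%). It was lowest among aGVHD libraries in replicate 2 (1.47%), and control replicates 6 and 7 had 0 such cells among 14 and 39.

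To compare shares of cells at 1 depth, each cell was thinned to 200 named transcripts, which left out 59 aGVHD and 26 control cells. S100a8 was then detected in 48.3% ± 13.3 (SD, n = 12) of neutrophil-gene cells per aGVHD library and 38.7% ± 13.3 (SD, n = 7) per control library, and S100a9 in 60.4% ± 15.6 and 44.0% ± 16.3. S100a6 was detected in 23.4% ± 12.8 and 14.3% ± 6.32. Library ranges overlapped for these 3 genes, S100a8 spanning 32.1% to 71.3% in aGVHD and 22.9% to 61.5% in control, and no test was run on these shares. Without thinning, S100a8 was detected in 81.0% of aGVHD and 60.4% of control cells. In C1q-negative cells with under 3 neutrophil-list transcripts, a class that may hold shallow neutrophils, the thinned share was 14.9% (14 of 94, 95% exact interval 8.39% to 23.7%) in aGVHD and 13.8% (4 of 29, 3.89% to 31.7%) in control cells, at median totals of 1277 and 1245 transcripts against 2337 and 2482 in neutrophil-gene cells. Intervals of this kind cover counting error only. Both calprotectin genes were seen in 41.0% of the 829 thinned aGVHD cells and 23.9% of the 276 thinned control cells, and neither in 29.2% and 45.7%.

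A small group of cells with granule genes stood at the top of the S100 range. Granule-gene-positive cells, neutrophil-gene cells with at least 5 transcripts of Ngp, Camp and Ltf, which encode proteins of the secondary granules and are transcribed in immature neutrophils of the marrow, numbered 24. All came from aGVHD libraries, 10 from replicate 7, 8 from replicate 6, 4 from replicate 4 and 1 each from replicates 3 and 11. Each of the 24 held S100a8, S100a9 and S100a6. Their median counts were 212 transcripts of S100a8, 223 of S100a9, 29 of S100a6 and 10 of S100a11, S100a10 was seen as 1 transcript in 1 cell, and S100a4 was seen in 0 of 24 cells (95% exact interval up to 14.2%, for counting error only, with most of the cells from 3 libraries). Making up 2.86% of aGVHD neutrophil-gene cells, they carried 34.6% of the S100a8 and 28.4% of the S100a9 transcripts of that class. Calprotectin took a median of 14.4% of their named transcripts, and 21.8% in the highest cell.

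In the 3 libraries with at least 3 cells of each class (aGVHD replicates 4, 6 and 7), all 4 tested S100 genes were higher in granule-gene-positive cells than in the other neutrophil-gene cells. In replicates 4, 6 and 7 S100a8 had 58060, 71348 and 86272 CPM in granule-gene-positive cells, against 9943, 11825 and 20816 CPM in the other cells, and the classes did not overlap. The log2 changes by limma were 2.48 (SE 0.17, adjusted p = 4.48e-11) for S100a8, 2.15 (SE 0.17, adjusted p = 3.37e-10) for S100a9, 1.96 (SE 0.19, adjusted p = 2.87e-08) for S100a6 and 1.21 (SE 0.21, adjusted p = 0.000141) for S100a11. Of the 1227 genes tested, 12.1% were called higher. The S100a11 call was lost without aGVHD replicate 7 (log2 change 1.26, adjusted p = 0.0669 by limma). All 4 tested partner genes were also called higher, among them Anxa1, the annexin bound by S100A11, at 3.04 (SE 0.26) and Anxa2 at 1.41 (SE 0.24), whereas Cd14 at 0.31 (SE 0.20) and Myd88 at 0.75 (SE 0.49) were not. The few libraries, all from 1 group, limit this comparison. With 3 libraries the limma variance of a gene draws mostly on the other genes tested. The p-values of this fit therefore do not measure the spread among libraries alone.

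Lower granule counts were also looked at, pooling cells over libraries. With 0, 1, 2 to 4 and at least 5 granule-gene transcripts, the pooled S100a8 level was 7084, 16587, 20540 and 74858 CPM over 740, 47, 27 and 24 aGVHD cells. S100a6 ran 1415, 3358, 4864 and 10574 CPM over the same bins. S100a9 (10201, 23087, 22673 and 77262 CPM) and S100a11 (1328, 2175, 1901 and 3387 CPM) did not climb between the middle bins. Among control cells, S100a8 was at 2810 CPM in the 270 cells with 0 granule transcripts and at 1807 CPM in the 12 cells with 1. The aGVHD bins pool 12, 8, 7 and 5 libraries, so differences between libraries enter them. Within the 7 aGVHD libraries with at least 3 cells on each side, S100a8 and S100a6 were higher at 1 to 4 granule transcripts than at 0 in 5, and S100a9 and S100a11 in 6. S100a8 was lower at 1 to 4 in aGVHD replicates 2 (4266 and 4383 CPM) and 11 (5701 and 7309 CPM). These values have no test, and a cell with more transcripts in all has more chance of a granule transcript.

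**Figure D3:**
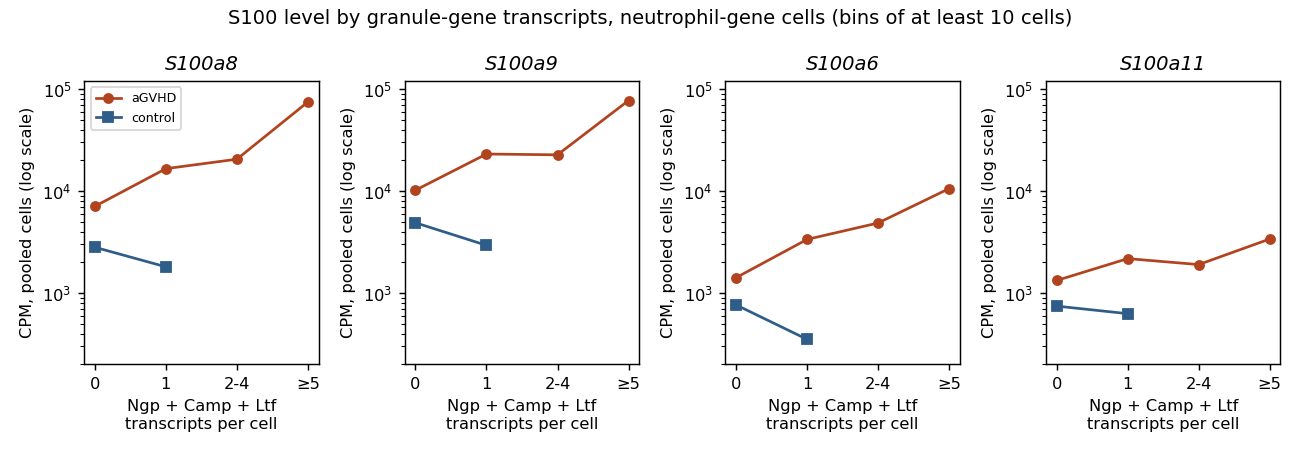
Pooled level (CPM, log scale) of S100a8, S100a9, S100a6 and S100a11 in neutrophil-gene cells by the number of Ngp, Camp and Ltf transcripts in the cell, for aGVHD (circles) and control (squares) in bins of at least 10 cells. S100a8 in aGVHD runs from 7084 CPM at 0 granule transcripts to 74858 CPM at 5 or more.

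The balance of the calprotectin subunits also differed between groups. The ratio of S100a8 to S100a9 transcripts was 0.721 ± 0.133 (SD, n = 12) in aGVHD libraries and 0.515 ± 0.195 (SD, n = 10) in control libraries, and it was below 1 in every library. The aGVHD values ran from 0.422 (replicate 5) over a median of 0.748 to 0.929 (replicate 7), and the control values from 0.08 (replicate 9) over a median of 0.527 to 0.728 (replicate 8), so the groups overlapped. Adjusted for title set, the log2 ratio was 0.64 higher in aGVHD (exact two-sided test permuting the groups inside each title set, p = 0.00685, 210210 arrangements). Within sets the difference was 0.45 in the dated set (exact permutation, p = 0.0390) and 0.96 in the G1 set (exact permutation, p = 0.0286). Capture of the 2 transcripts may differ, so a ratio below 1 does not give their proportion in the cell.

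The size of that difference rested in part on shallow control libraries. Without control replicate 9, which held 2 S100a8 and 25 S100a9 transcripts, it was 0.37 (exact permutation, p = 0.0133). With at least 50 S100a9 transcripts required, which leaves out control replicates 5, 9 and 10, it was 0.26 (exact permutation, p = 0.0681). After thinning each cell to 500 transcripts it was 0.32 (exact permutation, p = 0.0858). In neutrophil-gene cells of 12 aGVHD and 9 control libraries it was 0.68 (exact permutation, p = 0.00792). That value still includes control replicates 9 and 5, with 7 and 6 such cells and 25 and 30 S100a9 transcripts.

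**Figure D4:**
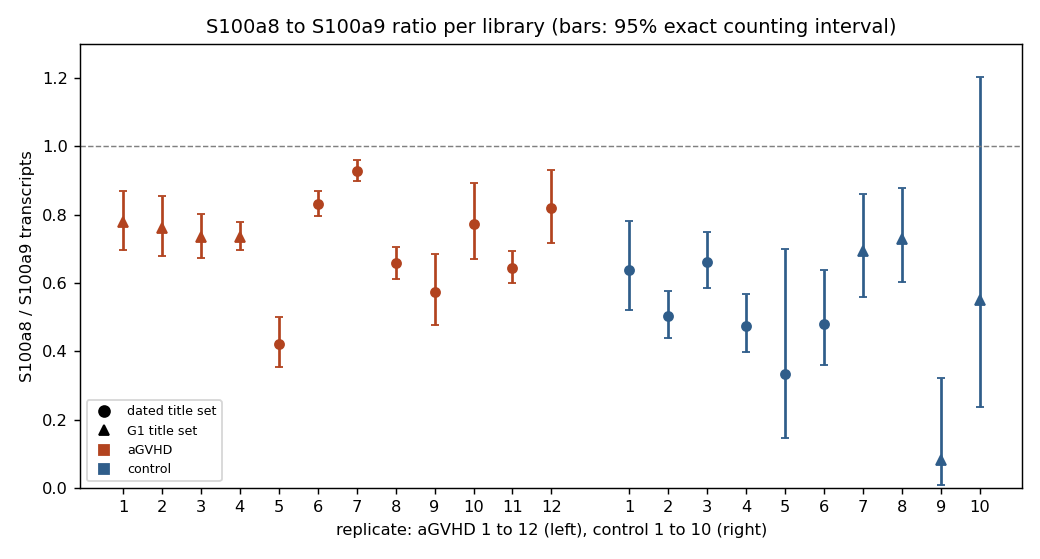
Ratio of S100a8 to S100a9 transcripts in each library over all kept cells, aGVHD replicates on the left and control replicates on the right, with 95% exact intervals for counting error; the dashed line is a ratio of 1 and the shape gives the title set. Every library lies below 1, and control replicate 9, at 0.08, has the lowest value.

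The ratio was also set beside the amount of calprotectin in a cell. Among aGVHD neutrophil-gene cells, the pooled ratio was 0.628, 0.663, 0.763 and 0.954 in cells with 20 to 49, 50 to 99, 100 to 299 and at least 300 transcripts of the pair, over 154, 61, 64 and 28 cells. Among control cells it was 0.564, 0.533 and 0.622 in the first 3 of these bins, over 39, 14 and 7 cells. These bins pool libraries of different ratios, the highest aGVHD bin drawing on 6 libraries and the lowest on 12. Within libraries with at least 3 cells on each side, the ratio was higher in cells with at least 100 transcripts of the pair than in those with 20 to 99 in 5 of 6 aGVHD libraries, aGVHD replicate 11 being the exception (0.642 and 0.676), and lower in the 1 control library (0.580 and 0.707). No test was run on these values. Granule-gene-positive cells had a higher ratio than the other neutrophil-gene cells of their library in 5 of 5 libraries, 0.918 ± 0.154 against 0.725 ± 0.079 (SD, n = 5). That log2 difference of 0.33 had p = 0.0625 by an exact two-sided sign-flip test, the smallest p that 5 libraries can give. When 2 granule-gene transcripts sufficed for the class, the difference was -0.0513 (exact sign-flip test, p = 1.0).

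C1q-positive cells, which transcribe the complement genes C1qa, C1qb and C1qc that mark tissue macrophages, had less calprotectin than the C1q-negative cells of the same library. Over the 12 libraries with at least 3 such cells, S100a8 had 16.4 CPM in the lowest, 729 CPM in the median and 15224 CPM in the highest C1q-positive class, against 1702 CPM, 3854 CPM and 34214 CPM in the C1q-negative class. S100a9 had medians of 1205 CPM in C1q-positive and 6333 CPM in C1q-negative cells. S100a8 had a log2 difference of -2.51 (SE 0.33, adjusted p = 2.52e-06 by limma), S100a9 of -2.60 (SE 0.28, adjusted p = 1.66e-07) and S100a11 of -1.06 (SE 0.25, adjusted p = 0.00140). S100a8 and S100a9 were lower in the C1q-positive cells of 12 of 12 libraries, and S100a11 in 11 of 12. Of the 792 genes tested, 27.8% were called lower, 3 of the 4 S100 genes that passed the filter among them. S100a4 and S100a10 did not pass the filter here. Their pooled levels were 223 and 252 CPM in C1q-positive cells and 67.7 and 113 CPM in C1q-negative cells.

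For S100a6 the C1q-class difference was close to the threshold. Its value of -0.83 (SE 0.35) had an adjusted p of 0.0511 by limma. It passed in 5 of 12 leave-one-out runs, those without control replicate 2, 7 or 8 or aGVHD replicate 1 or 11 (0.0257 to 0.0474). In the other runs the adjusted p was 0.0833 to 0.141 (limma). The S100a6 level was lower in the C1q-positive cells of 8 of 12 libraries. In aGVHD libraries alone the log2 difference was -1.36 (SE 0.37, adjusted p = 0.00751), and in control libraries alone it was 0.53 (SE 0.40, adjusted p = 0.382, limma). The difference between the groups, tested by exact permutation of the group labels over 8 aGVHD and 4 control libraries, had p = 0.0828 (0.497 adjusted over the 6 genes).

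**Figure D5:**
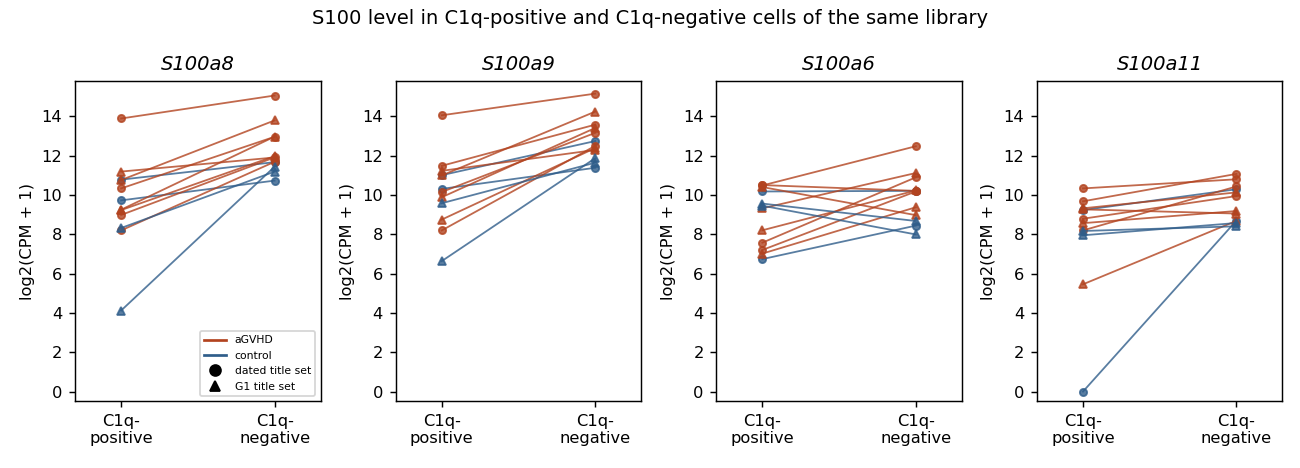
Level of S100a8, S100a9, S100a6 and S100a11, as log2(CPM + 1), in C1q-positive (left) and C1q-negative (right) cells of the same library, joined by a line; colour gives the group and shape the title set. S100a8 and S100a9 lines climb to the C1q-negative side in all 12 libraries, and S100a6 lines run both ways.

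Within C1q-positive cells the groups could not be separated. S100a8 had 293 CPM in the lowest, 951 CPM in the median and 15224 CPM in the highest of 8 aGVHD libraries, against 847, 1761, 319 and 16.4 CPM in control replicates 1, 2, 7 and 8. Only aGVHD replicates 7 and 1 lay above every control library. Within title sets, 4 of 4 aGVHD libraries of the G1 set and 1 of 4 of the dated set lay above the controls of their set. The log2 change of 2.09 (SE 1.13, 95% interval -0.33 to 4.51) had an adjusted p of 0.619 by limma. The change fell to 0.71 without control replicate 8 and rose to 3.87 without control replicate 2. None of the 434 genes tested was called by limma (0.0%), with 35 at an unadjusted p under 0.05. A single cell of aGVHD replicate 7 held 804 of the 1263 S100a8 transcripts of aGVHD C1q-positive cells (63.7%). That cell had 3 C1q, 181 neutrophil-list and 644 granule-gene transcripts among 17265.

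Most C1q-positive cells also held neutrophil transcripts, as did most C1q-negative cells. At least 3 neutrophil-list transcripts were held by 66 of the 70 C1q-positive and 1121 of the 1313 C1q-negative cells. These shares are not at equal depth. The median totals of C1q-positive cells were 7585 transcripts in aGVHD and 8752 in control libraries, against 2194 and 2287 in C1q-negative cells. Per 100 neutrophil-list transcripts, C1q-positive cells carried 76.5 of S100a8 in aGVHD and 10.3 in control, and neutrophil-gene cells 51.7 and 18.4. Without the S100a8-richest C1q-positive cell of each group, a choice made after seeing the data, these cells carried 31.2 in aGVHD and 5.78 in control, and without granule-gene-positive cells the neutrophil-gene cells carried 38.0 in aGVHD. For S100a4 the same figures were 3.15 and 6.56 in C1q-positive cells and 0.306 and 0.366 in neutrophil-gene cells, and for S100a10 they were 4.00 and 6.25 against 0.328 and 1.35. No doublet caller was run, and the part of joined cells or free RNA in these values was not tested. The S100a8 to S100a9 ratio was 0.712 ± 0.196 in C1q-positive and 0.725 ± 0.128 in C1q-negative cells of 9 libraries (SD), a log2 difference of -0.06 (95% interval -0.44 to 0.32, exact sign-flip test, p = 0.734).

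Across the 22 libraries, on log2 CPM less the mean of each group and title set, S100a8, S100a9 and S100a6 were close to each other. Of 1715 genes, S100a6 was nearest to S100a8 (Spearman's rho 0.89), followed by S100a9 (0.88), Map1lc3b (0.87), Alox5ap (0.81) and Rac2 (0.81). S100a8 was nearest to S100a6, followed by Rac2 (0.86), S100a9 (0.86), Ifitm1 (0.86) and Map1lc3b (0.84). S100a11 reached 0.73 with S100a8, at rank 14, and S100a10 reached 0.25, at rank 381. S100a4 was not among the genes compared. These correlations share each library's depth and cell make-up and are given as a description.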

How the data were processed

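The authors deposited 1 table per library with estimated counts (transcripts of each gene in each barcode), corrected for identifiers drawn from 4096 and not normalised for depth. The submitters' processing notes name BWA 0.6.2-r126 and bcl2fastq 2.17.1.14. Genome build and annotation are not given in the sources used here. Estimates were rounded, barcodes with at least 500 transcripts kept, and transcripts of named genes summed per library and class. The columns are headed by bare numbers and were entered as another kind of unit, so no count model was run. Sums were tested with limma 3.58.1 (R 4.3.3): voom weights, scaling by a trimmed mean (0.3 of the ratios and 0.05 of the levels trimmed), a low-count filter (10 transcripts for the median library and 15 over all), title set as covariate, or library as block between classes, and Benjamini-Hochberg adjustment over all tested genes at 0.05. Groups were compared in libraries with at least 10 neutrophil-gene or 3 C1q-positive cells. Ratios used libraries with at least 20 S100a9 transcripts and exact permutation tests (Python 3.11.15, scipy 1.17.1). The fit was also run on simulated sums that gave every gene the same spread, a simpler setting than these data. Sequences are from RefSeq (GRCm38.p6), with 5 of 6 genes matched.

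The genes, lists and classes were chosen with earlier results of these data known. Named genes are the 6 S100 genes, 12 further S100 family genes, 6 receptor genes, 7 partner genes, and the 5 genes closest to S100a8 and to S100a6. The 3-transcript cutoffs leave 59 cells with 2 to 4 C1q transcripts and 148 C1q-negative cells with 2 to 4 neutrophil-list transcripts near a boundary. In each library 96 barcodes were taken as unused from their totals. Alternatives covered scaling, filters, thresholds, thinning, title sets, left-out libraries and a replicate block.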

Additional observations from a re-analysis of the deposited data

Results flagged for a closer look

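Single libraries stood apart within their group in 5 of 63 groups of values examined, where chance gives about 1 in 20, and all were for the scarce S100a4 and S100a10. Over all kept cells, S100a4 was at 192 CPM in aGVHD replicate 11, against 30.9 to 90.1 CPM in the other 7 aGVHD libraries of the dated set, and at 235 CPM in control replicate 8, against 0 to 33.2 CPM in the other 3 control libraries of the G1 set. Control replicate 8 held 29 S100a4 transcripts in its 4 C1q-positive cells and 2 in its neutrophil-gene cells. In neutrophil-gene cells, S100a4 was at 337 CPM in control replicate 6, from 6 transcripts in 14 cells. The other control libraries had 0 to 89.1 CPM, whether the dated set or all 7 are taken. S100a10 was at 218 CPM in aGVHD replicate 6, against 0 to 74.9 CPM in the other aGVHD libraries of the dated set.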

How the results depend on the processing

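The 4 S100 calls over all kept cells kept their direction in every alternative run, but not every adjusted p. Of 191 alternative values for 5 genes, 172 kept their side of the threshold and 19 no longer passed. S100a10, not called in the main fit, had no call to lose. The 4 called genes passed in all 22 runs that left out 1 library. Of 18 other alternatives, S100a8 and S100a9 passed in 15 each, S100a6 in 12 and S100a11 in 11. S100a6 and S100a11 did not pass after thinning (0.0770, 0.0708) or after a quality filter on cells (0.0607, 0.0560). With the aGVHD replicates 6 and 7 left out, chosen after seeing the data, all 4 passed, at log2 changes of 0.93 to 1.59. In neutrophil-gene cells 21 of 160 values newly passed, and with those replicates left out the S100a8 change was 0.99 (adjusted p = 0.115, limma). Without a low-count filter the median log2 change of all genes shifted from 0.02 to -0.56 over all kept cells.

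Genes called over all kept cells (143, 73 higher and 70 lower; 98 and 62 with no scaling) numbered 1795 with no low-count filter, 7 after thinning to 500 transcripts, 24 with the quality filter, 39 in the dated set, 9 in the G1 set, 19 in libraries of at least 20 cells, 50 without C1q-positive cells and 60 without mitochondrial and ribosomal protein genes. In neutrophil-gene cells (15, 11 higher and 4 lower; 15 and 2 with no scaling) they numbered 8 with median-of-ratios scaling (3 higher and 5 lower), 40 with no filter, 0 after thinning (44 at an unadjusted p under 0.05), 4 at 1000 transcripts per cell, 0 with the quality filter (147), 4 with no covariate, 0 in the G1 set (119), 29 at 1 and 0 at 6 neutrophil-list transcripts (272), 26 and 4 in libraries of at least 5 and 20 such cells, and 2 with aGVHD replicates 6 and 7 left out, all by limma. In C1q-positive cells (0) they numbered 7 with no filter and 2 at 1 C1q transcript. Between C1q classes (400) they numbered 9494 with no filter, 26 after thinning and 128 in control libraries alone; median-of-ratios scaling moved the median of all genes from -0.11 to -0.23. Between granule classes (242) they numbered 3332, 42 after thinning and 72 at 2 granule transcripts.

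Leaving out 1 library at a time gave 62 to 195 calls over all kept cells, with 62 to 95 without control replicate 1, 4, 6 or 9, 2 to 39 in neutrophil-gene cells, where 15 of 19 libraries moved the count by over 1.5 times, 0 to 1 in C1q-positive cells, 366 to 436 between C1q classes and 34 to 169 between granule classes, the lowest without aGVHD replicate 7. It gave log2 ratio differences of 0.37 to 0.72 for group, -0.17 to 0.0355 for C1q class, with a change of sign without aGVHD replicate 11 (0.0010) and without control replicate 7 (0.0355), and 0.27 to 0.39 for granule class. The group ratio difference of 0.64 was 0.32 after thinning, 0.26 with at least 50 S100a9 transcripts and 0.43 over dated libraries paired by title number (replicate block, exact sign-flip test, p = 0.125). The granule-class ratio difference turned to -0.0513 at 2 granule transcripts. S100a6 turned to 0.75 in C1q-positive cells at 1 C1q transcript and to 0.53 between C1q classes in control libraries alone. The causes were not tested.

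Whether same-numbered titles of the dated set mark paired libraries is not known and was not tested. The median correlation of deviations was 0.12 (-0.08 to 0.17) over the 6 same-numbered pairs, against -0.02 (-0.27 to 0.32) over the 42 other pairs. With the number as a replicate block 22 genes were called over all kept cells, against 5 in the same libraries with no replicate block, and 1 against 1 in neutrophil-gene cells. Thinned C1q-positive cells and a granule threshold of 20 left too few genes or libraries for a fit, as did C1q-positive cells with under 3 neutrophil-list transcripts. Depth limits S100a4, S100a10 and the C1q-positive class.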
